A study of Homo sapiens with 6 samples.

Results

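The peaks of human chromosome 2 in ACHN cells, a renal carcinoma line, were described for 2 antibodies, one against the histone mark H3K27me3 and one against EZH2, in 2 genotypes, ZCCHC8-KO and ZCCHC8-WT. The members were all peaks listed on chromosome 2 in the 4 deposited peak lists, with identical lines counted once: 30848 of 213235 peaks, or 14.5%. The H3K27me3 lists held 9900 of them in KO and 13056 in WT, and the EZH2 lists 3122 in KO and 4770 in WT. Both groups are the same cell line and carry no treatment in the labels, and the lists of each genotype were made against an input library of that genotype. Cells were fixed with formaldehyde, chromatin was sonicated, and precipitated DNA was sequenced as read pairs. Each antibody and genotype had 1 library, so differences lack a replicate check and were not tested. The members were selected on the authors' peak calls, chosen by position, so counts along the chromosome are descriptions. The sources used here do not say whether the knockout is 1 clone or a pool, and peak positions check neither the loss of ZCCHC8 nor the identity of the cells.

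H3K27me3 is a histone mark of repressed chromatin that is written by Polycomb repressive complex PRC2, whose catalytic subunit is EZH2. PRC2 is best known for holding developmental genes silent, often at promoters rich in CpG dinucleotides and over broad stretches around them. ZCCHC8 is the scaffold of the NEXT complex, which brings short-lived nuclear RNAs to the RNA exosome for decay. Chromosome 2 carries the HOXD cluster, which patterns limbs and the body axis, and homeobox genes such as POU3F3, EN1, EMX1, SIX3, DLX1 and DLX2. Its centromere is flanked by satellite arrays and by segments with near-identical copies elsewhere, where the origin of a read is uncertain.

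Promoter sequences are shown for 3 genes because they show where the peaks lie relative to a start site. POU3F3, a neural and kidney POU factor, had, with the predicted gene LOC124908045 inside it, the largest EZH2 difference of the chromosome 2 genes, and CYP27C1, a retinoid desaturase, and IGFBP2, an insulin-like growth factor binding protein, were the 2 genes whose upstream 250 bases met an EZH2 peak in both genotypes. The sequences are from RefSeq (GRCh38.p14), written 5′ to 3′ on the strand of the gene, with CG dinucleotides in capitals. POU3F3 lies at chr2:104853865-104854114 (plus strand), CYP27C1 at chr2:127220300-127220549 (minus strand) and IGFBP2 at chr2:216632578-216632827 (plus strand).
POU3F3: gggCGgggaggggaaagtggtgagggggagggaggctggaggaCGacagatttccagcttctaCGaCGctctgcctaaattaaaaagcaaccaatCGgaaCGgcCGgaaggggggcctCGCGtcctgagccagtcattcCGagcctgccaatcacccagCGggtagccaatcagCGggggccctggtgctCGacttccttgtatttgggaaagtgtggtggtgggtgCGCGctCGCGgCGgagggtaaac
CYP27C1: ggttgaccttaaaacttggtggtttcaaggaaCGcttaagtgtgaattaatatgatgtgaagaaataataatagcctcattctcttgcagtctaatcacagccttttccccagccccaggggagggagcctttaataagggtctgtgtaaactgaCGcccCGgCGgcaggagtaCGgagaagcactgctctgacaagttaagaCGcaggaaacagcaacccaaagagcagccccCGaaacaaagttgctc
IGFBP2: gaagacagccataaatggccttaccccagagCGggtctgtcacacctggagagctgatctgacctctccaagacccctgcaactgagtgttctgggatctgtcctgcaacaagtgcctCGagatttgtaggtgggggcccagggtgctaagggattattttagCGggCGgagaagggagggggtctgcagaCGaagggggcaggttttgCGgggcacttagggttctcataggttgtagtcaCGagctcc
The POU3F3 sequence has 18 CG dinucleotides and none of its bases lay in a peak of any list. It lies past the POU3F3 start used for gene windows, 104853276, so the annotations used here place that start differently. The CYP27C1 sequence has 7, with 148 bases covered by EZH2 in KO and 250 in WT, and 76 bases covered by H3K27me3 in KO and none in WT. The IGFBP2 sequence has 7 and was covered over all 250 bases by EZH2 in KO and in WT, and by H3K27me3 in neither.

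Few promoters were covered by a peak. Of 1254 protein-coding genes on chromosome 2, 1108 matched a promoter sequence, and EN1 did not. An EZH2 peak met the upstream 250 bases of 8 genes in KO only, of 8 in WT only and of 2 in both, and an H3K27me3 peak met those of 7, 5 and 2. The median number of CG dinucleotides was 2.5, 7 and 7 in the promoters with an EZH2 peak in KO only, in WT only and in both, and 19 in the 1090 without one. Of all 1108 promoters, 70.5% held 10 or more CG dinucleotides, against 1 of the 8 with EZH2 in KO only and 2 of the 8 in WT only. These counts are over the letters of the upstream window only.

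Chromosome 2 held more peaks than any other chromosome in all 4 lists. Its share was 14.2% of the H3K27me3 peaks in KO and 14.0% in WT, and 16.0% of the EZH2 peaks in KO and 15.5% in WT, while it has 6.28% of the protein-coding genes and 7.99% of the 1-Mb bins. By peaks per 1-Mb bin it had rank 3 of 23 chromosomes in both H3K27me3 lists, rank 2 for EZH2 in KO and rank 3 for EZH2 in WT. The KO/WT ratio of peak number was 0.758 for H3K27me3 (95% interval 0.739 to 0.778) and 0.655 for EZH2 (0.625 to 0.685). Over the other chromosomes it was 0.749 and 0.633. Intervals here and below are exact, from binomial counts, and cover counting error only.

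With peaks of all scores counted, the deficit in peak number lay outside the pericentromeric part. This part was set as 90 to 97 Mb, 7 of 243 bins of 1 Mb. Outside it, H3K27me3 had 8744 peaks covering 3.04 Mb in KO and 11943 covering 4.13 Mb in WT, a ratio of 0.732 for number (0.712 to 0.753) and 0.736 for length. EZH2 had 2742 peaks covering 0.762 Mb in KO and 4423 covering 1.10 Mb in WT, a ratio of 0.620 for number (0.591 to 0.650) and 0.693 for length. Inside it, H3K27me3 had 1156 peaks in KO and 1113 in WT, a ratio of 1.04 (0.956 to 1.13), and EZH2 had 380 in KO and 347 in WT, a ratio of 1.10 (0.944 to 1.27). The pericentromeric intervals include 1 and do not overlap the intervals outside. With every deposited line counted, repeats included, the pericentromeric ratios were 1.12 (1.06 to 1.17) for H3K27me3 and 1.19 (1.08 to 1.31) for EZH2. These intervals do not include 1, but they count repeats of the same peak as separate peaks, so they are too narrow. The pericentromeric part therefore held 11.7% (11.1 to 12.3) of the H3K27me3 peaks of chromosome 2 in KO and 8.52% (8.05 to 9.02) in WT, and 12.2% (11.0 to 13.4) of the EZH2 peaks in KO and 7.27% (6.55 to 8.05) in WT.

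The authors' score, given to each peak, moved with genotype. Its median outside the pericentromeric part was 6 in KO and 7 in WT for H3K27me3 and 5 in KO and 7 in WT for EZH2, and the lowest score listed was 4 in KO and 5 in WT. With peaks under a score of 7 left out of all lists, the ratio outside was 0.325 for H3K27me3 and 0.179 for EZH2. The pericentromeric ratio was then 0.871 (0.793 to 0.956) for H3K27me3 and 0.835 (0.699 to 0.997) for EZH2, with both intervals below 1. The sources used here give neither the definition of the score nor the depth of the libraries, so a score may not mean the same in KO and WT. Its part in the ratios was not tested.

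**Figure D1:**
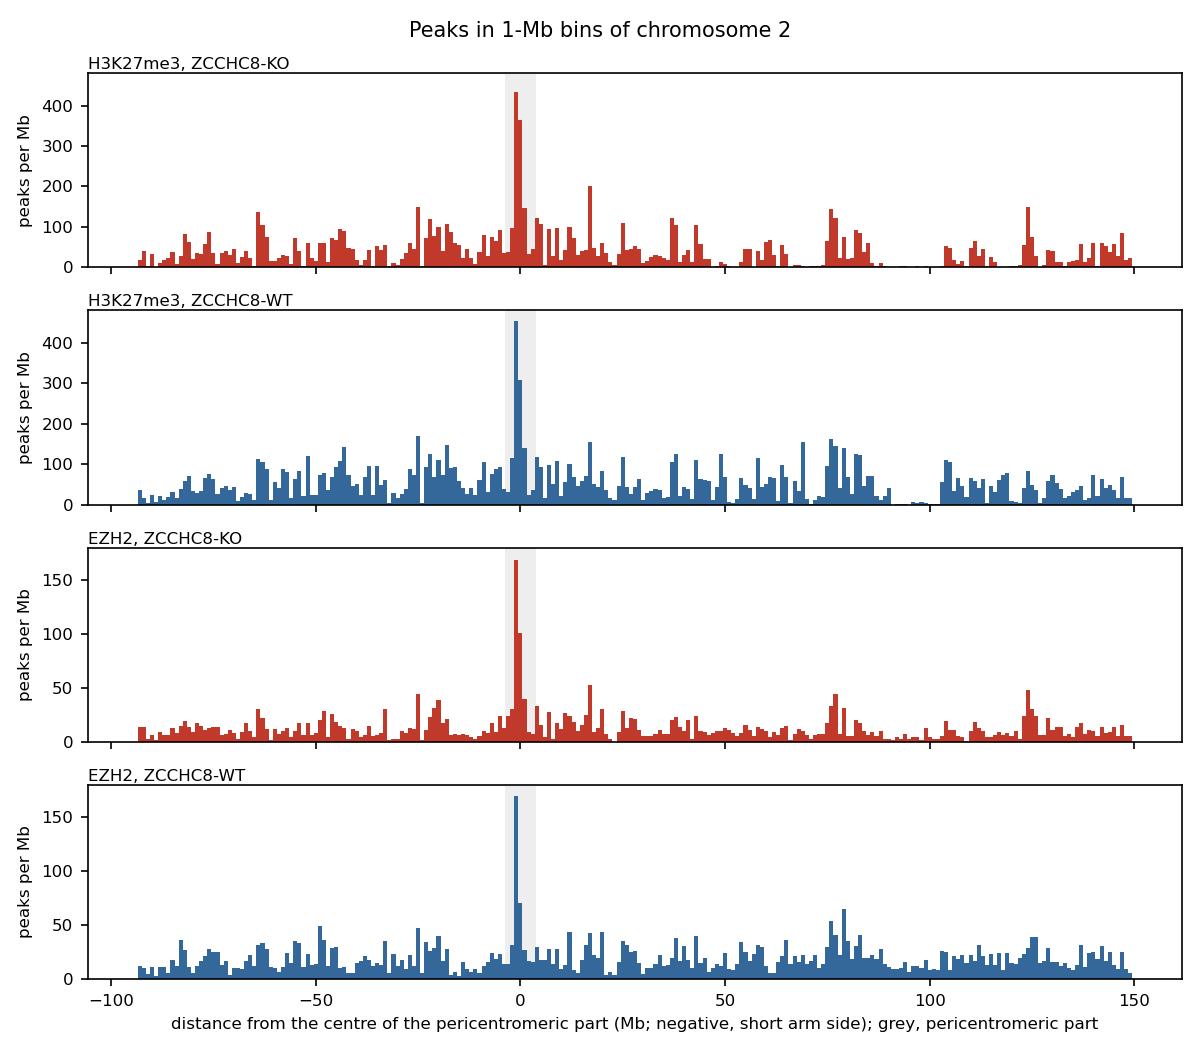
Peaks in each 1-Mb bin of chromosome 2 by distance from the centre of the pericentromeric part (grey), for H3K27me3 and EZH2 in ZCCHC8-KO and ZCCHC8-WT; each bar is 1 bin of 1 library. The tallest bins are pericentromeric in all 4 lists, with 434 H3K27me3 peaks in KO and 455 in WT, and over much of the long arm the bars are lower in KO than in WT.

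In the pericentromeric part the peaks were dense, wide and high in score. H3K27me3 peaks numbered 165 per Mb in KO and 159 in WT there, against 37.1 in KO and 50.6 in WT outside. EZH2 peaks numbered 54.3 per Mb in KO and 49.6 in WT there, against 11.6 in KO and 18.7 in WT outside. Their median width was 326.5 bp in KO and 337 bp in WT for H3K27me3, against 274 bp in KO and 273 bp in WT outside. For EZH2 it was 272.5 bp in KO and 238 bp in WT, against 236 bp in KO and 211 bp in WT outside. H3K27me3 peaks with a score of 20 or more numbered 43 in KO and 64 in WT, all of them pericentromeric. EZH2 peaks with such a score numbered 15 in KO (3.95%) and 7 in WT (2.02%) there. Outside, they numbered 1 in KO (0.0365%) and 6 in WT (0.136%). The highest EZH2 score in WT was 29 in both parts. H3K27me3 peaks lay farther than 5 kb outside any protein-coding gene in 97.8% of cases in KO and 98.5% in WT, and EZH2 peaks in 97.1% in KO and 95.4% in WT.

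Most of these peaks came from 3 bins. H3K27me3 had 434 peaks in KO and 455 in WT between 92 and 93 Mb, 363 in KO and 309 in WT between 93 and 94 Mb, and 147 in KO and 141 in WT between 94 and 95 Mb. EZH2 had 169 in KO and 170 in WT, 101 in KO and 71 in WT, and 40 in KO and 27 in WT in the same bins. The bin from 93 to 94 Mb thus had more peaks in KO for both antibodies, and the densest bin held nearly equal numbers. At the edges, H3K27me3 had 38 peaks in KO and 31 in WT in the first bin inside and 35 in KO and 39 in WT in the bin before it. It had 46 in KO and 37 in WT in the last bin inside and 121 in KO and 117 in WT in the bin after it, so the long-arm edge is followed by a denser bin.

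A cluster of high scores stood near the predicted gene LOC124905368. The EZH2 peak at chr2:90390482-90390947 had a score of 65 in KO, the highest of any chromosome 2 EZH2 peak, and no EZH2 peak met it in WT. The stretch from 90367611 to 91427098 was picked for having EZH2 peaks in KO alone, with 12 in KO and none in WT. The H3K27me3 lists there held 12 in KO and 12 in WT. H3K27me3 at the same place had a score of 54 in KO (chr2:90390438-90390900) and 58 in WT (chr2:90390242-90390903). The widest pericentromeric peaks lay at the same sites in both genotypes: H3K27me3 was 3281 bp wide in KO (from 94273820) and 3352 bp in WT (from 94273973), and EZH2 2401 bp in KO (from 91474637) and 1569 bp in WT (from 91475488).

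Peak positions were shared more often in the pericentromeric part. Of its H3K27me3 peaks, 54.2% (51.2 to 57.1) in KO overlapped a WT peak by at least 1 bp and 55.7% (52.7 to 58.7) in WT overlapped a KO peak. Outside, the shares were 23.9% (23.05 to 24.85) of KO peaks and 17.6% (16.9 to 18.2) of WT peaks. EZH2 peaks were shared in 28.2% of cases in KO and 31.7% in WT in the pericentromeric part, and in 7.66% (6.69 to 8.72) in KO and 4.86% (4.25 to 5.54) in WT outside. Peaks covered 6.55% of the pericentromeric bases in KO and 6.69% in WT for H3K27me3, against 1.29% in KO and 1.75% in WT outside, so overlaps by position alone are more frequent there, and this was not tested. With at least 50% of a peak's length required to be covered, the outside shares were 13.3% in KO and 9.52% in WT for H3K27me3, and 4.19% in KO and 2.69% in WT for EZH2. How often repeats of 1 genotype share peaks is unknown, so low sharing is no measure of turnover.

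Wider peaks were shared more, but a wider peak meets another by 1 bp more easily through its width alone. Outside the pericentromeric part, H3K27me3 peaks of 1 kb or more overlapped the other genotype in 150 of 194 cases in KO (77.3%) and 163 of 254 in WT (64.2%), and peaks under 250 bp in 15.4% in KO and 10.5% in WT. For EZH2, peaks of 1 kb or more overlapped in 8 of 14 cases in KO and 14 of 14 in WT, and peaks under 250 bp in 4.94% in KO and 2.55% in WT. The share of bases covered by the other genotype depends less on width. For H3K27me3 it was 39.4% in KO and 31.1% in WT at 1 kb or more, and 10.4% in KO and 7.24% in WT under 250 bp. For EZH2 it was 29.5% in KO and 46.0% in WT at 1 kb or more, and 3.25% in KO and 1.59% in WT under 250 bp. EZH2 peaks met an H3K27me3 peak of the same genotype in 70.3% of pericentromeric cases in KO and 70.9% in WT, in 20.6% (19.1 to 22.2) in KO and 15.1% (14.0 to 16.2) in WT over the rest of chromosome 2, and in 17.6% in KO and 13.0% in WT on other chromosomes. Both lists of a genotype share their input library.

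**Figure D2:**
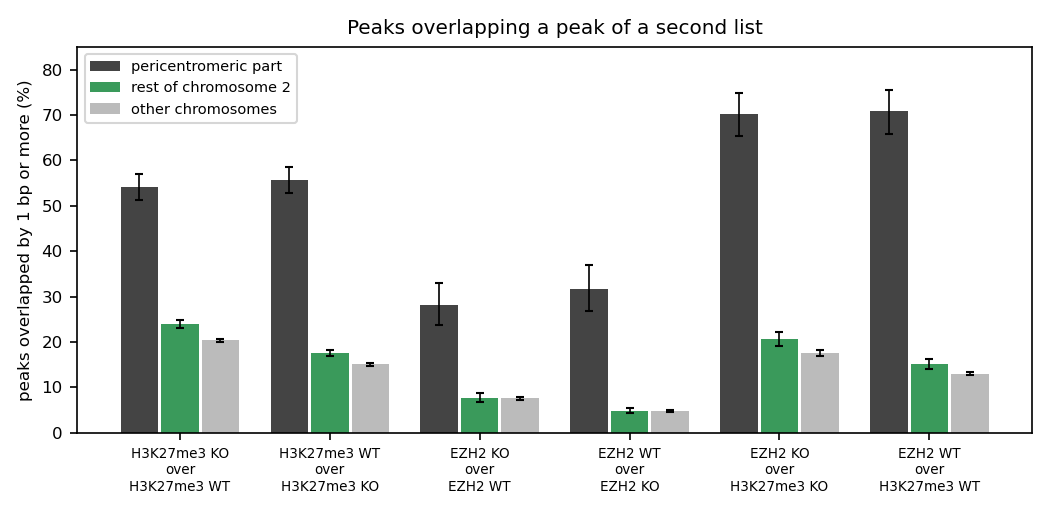
Percent of peaks of 1 list that overlap a peak of a second list by at least 1 bp, in the pericentromeric part, over the rest of chromosome 2 and on other chromosomes; lines are exact 95% intervals for counting error, with 1 library per list. The pericentromeric bars are the highest in all 6 pairs, up to 70.3% in KO and 70.9% in WT for EZH2 over H3K27me3.

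Along the rest of the chromosome the ratio varied, and the middle of the long arm had the lowest values. On the short arm (0 to 90 Mb) H3K27me3 had 3893 peaks in KO and 4974 in WT, a ratio of 0.783 (0.750 to 0.816). On the long arm the ratio was 0.896 (0.846 to 0.9498) from 97 to 140 Mb, 0.474 (0.446 to 0.502) from 140 to 214 Mb, with 1643 peaks in KO and 3469 in WT, and 0.964 (0.883 to 1.05) from 214 Mb to the end. EZH2 had 0.683 on the short arm and 0.742, 0.466 (0.424 to 0.511) and 0.656 on the same long-arm parts. The limits of 140 and 214 Mb are those of the outermost zones described below, whose rule used H3K27me3 deficits and was chosen after the bins were seen. The low H3K27me3 ratio between these limits was thus partly set by the choice, and its interval does not allow for that. In 10-Mb blocks H3K27me3 was lowest at 0.233 from 180 to 190 Mb (24 peaks in KO, 103 in WT) and highest at 1.26 from 240 Mb to the end (126 in KO, 100 in WT). EZH2 was lowest in the same block, at 0.326 (44 in KO, 135 in WT), and highest at 0.900 from 100 to 110 Mb (180 in KO, 200 in WT). The part past 214 Mb was uneven for H3K27me3, so its ratio of 0.964 averages unlike blocks. From 220 to 230 Mb the H3K27me3 ratio was 0.473 (165 peaks in KO, 349 in WT), as low as in the middle long arm. From 230 to 240 Mb it was 1.06 (395 in KO, 372 in WT).

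**Figure D3:**
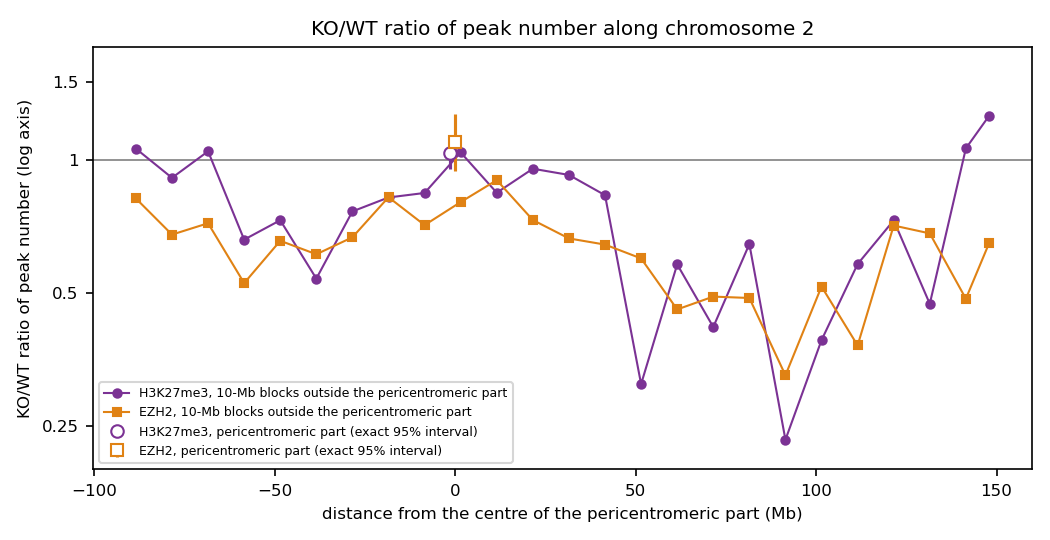
KO/WT ratio of peak number (log axis) in 10-Mb blocks of chromosome 2, by distance from the centre of the pericentromeric part in Mb; open symbols are the pericentromeric part with exact 95% intervals, which the blocks leave out. Both antibodies have their lowest ratio in the same block of the long arm, 0.233 for H3K27me3 and 0.326 for EZH2.

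Bins were called where covered length differed at least 2-fold and 1 list had 10 or more peaks. For H3K27me3, 66 of 210 such bins outside the pericentromeric part were lower in KO (31.4%, against 29.0% of bins over the genome) and 4 were higher (1.905%, against 4.15%). For EZH2, 76 of 200 were lower (38%, against 39.3%) and 4 were higher (2%, against 5.25%). The lower shares are near those of the genome. With peaks under a score of 7 left out, 147 H3K27me3 and 117 EZH2 bins were lower. By peak number alone, KO had fewer H3K27me3 peaks in 180 of 236 bins and more in 47, and fewer EZH2 peaks in 193 and more in 32. Counts in the 236 bins ranked alike in KO and WT, with a Spearman rho of 0.787 for H3K27me3 and 0.634 for EZH2. EZH2 and H3K27me3 counts had a rho of 0.727 in KO and 0.531 in WT. Bins of 1 library share its depth and input and are not replicates.

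In 4 zones of the middle long arm H3K27me3 peaks were few in KO. A zone is a stretch of at least 4 bins in which the H3K27me3 peak number of WT divided by 3 exceeds that of KO by as much as possible, so the H3K27me3 values chose it. Zone 1 (140 to 148 Mb), with LRP1B, a large lipoprotein receptor gene, had 41 H3K27me3 peaks in KO and 335 in WT, a ratio of 0.122. Zone 2 (159 to 168 Mb), with the dipeptidyl peptidase gene DPP4 and the glucagon gene GCG, had 30 in KO and 316 in WT, a ratio of 0.0949. Zone 3 (179 to 197 Mb), with ZNF385B, had 42 in KO and 247 in WT, a ratio of 0.170. In its bin from 181 to 182 Mb, which holds NEUROD1, the numbers were 11 in KO and 12 in WT. From 184 to 196 Mb no bin of this zone held more than 7 in WT. Zone 4 (210 to 214 Mb), with ERBB4, a neuregulin receptor, had 5 in KO and 222 in WT, a ratio of 0.0225.

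EZH2, which did not enter the zone rule but shares the input library of each genotype, was lower in KO in the same zones but by less. Zone 1 had 73 EZH2 peaks in KO and 125 in WT, a ratio of 0.584 (0.431 to 0.786). Zone 2 had 60 in KO and 150 in WT (0.400, 0.291 to 0.543), zone 3 had 87 in KO and 248 in WT (0.351, 0.272 to 0.450), and zone 4 had 28 in KO and 71 in WT (0.394, 0.245 to 0.619). Over all of chromosome 2 outside the pericentromeric part the EZH2 ratio was 0.620, so zones 2 to 4 lay below it and zone 1 near it. In KO the EZH2 peaks outnumbered the H3K27me3 peaks in all 4 zones. In WT the H3K27me3 peaks outnumbered them in zones 1, 2 and 4, and the numbers were nearly equal in zone 3. H3K27me3 peaks with a score of 7 or more numbered 3, 6, 16 and 0 in KO in zones 1 to 4, and 204, 224, 167 and 139 in WT.

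**Figure D4:**
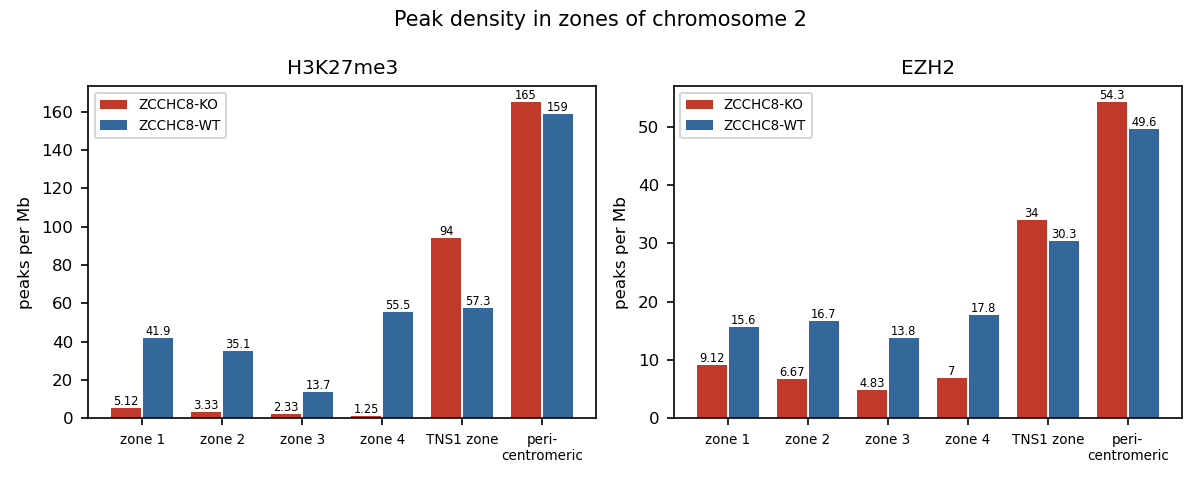
Peaks per Mb in zones 1 to 4 of the middle long arm, in the TNS1 zone (216 to 219 Mb) and in the pericentromeric part, for each antibody; each bar is 1 library, ZCCHC8-KO left and ZCCHC8-WT right. H3K27me3 has 1.25 peaks per Mb in KO and 55.5 in WT in zone 4, and 94 in KO and 57.3 in WT in the TNS1 zone.

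Long stretches held H3K27me3 peaks in WT and none in KO. From 161812939 to 162835552, over DPP4, GCG, FAP (a fibroblast protease), IFIH1 (a sensor of viral RNA), GCA and KCNH7 (a potassium channel), there were no peaks in KO and 141 in WT, and EZH2 had 9 in KO and 20 in WT. From 210389399 to 211979872, over the urea cycle gene CPS1 and part of ERBB4, there were none in KO and 107 in WT, with 10 EZH2 peaks in KO and 25 in WT. The bin from 162 to 163 Mb had the largest H3K27me3 deficit of the chromosome, with 3 peaks covering 1092 bp in KO and 154 covering 56921 bp in WT. It was followed by the bin from 142 to 143 Mb over LRP1B and KYNU, with 13 peaks in KO and 124 in WT. EZH2 peaks of WT with none in KO were fewer per stretch, the most being 25 from 196510577 to 197582744, over genes that include SF3B1, HSPD1 and HSPE1, where H3K27me3 had 4 peaks in KO and 53 in WT.

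Some bins went the other way, 4 per antibody by the 2-fold call. For H3K27me3 these were the bins from 1 to 2, 128 to 129, 217 to 218 and 239 to 240 Mb. For EZH2 they were those from 22 to 23, 49 to 50, 104 to 105 and 106 to 107 Mb. The other excesses named below, ranked by the difference in bases, did not reach 2-fold. The bin from 217 to 218 Mb, which holds TNS1, a focal adhesion gene, had 150 H3K27me3 peaks covering 57636 bp in KO and 83 covering 26984 bp in WT, and 48 EZH2 peaks in KO and 29 in WT. The stretch from 216 to 219 Mb was chosen by H3K27me3 values, as the one in which KO exceeded 1.2 times WT by the most peaks. Its H3K27me3 ratio of 1.64 was therefore above 1.2 by choice, and its EZH2 ratio was 1.12 (0.837 to 1.504). H3K27me3 peaks with a score of 7 or more numbered 116 in KO and 137 in WT there. The bin from 110 to 111 Mb, with BUB1 and ACOXL, was the most covered outside the pericentromeric part in KO, with 200 H3K27me3 peaks over 83689 bp in KO and 155 over 64193 bp in WT. It holds RGPD6 and LIMS4, which have near-identical copies, so its values are uncertain, and without peaks under a score of 7 its covered length was lower in KO for both antibodies. The other large H3K27me3 excesses were in the bins from 218 to 219 Mb (76 peaks in KO, 49 in WT), 240 to 241 Mb (85 in KO, 68 in WT) and 130 to 131 Mb (123 in KO, 105 in WT), and those of EZH2 in the bins from 170 to 171 Mb (44 in KO, 41 in WT) and 14 to 15 Mb (17 in KO, 12 in WT). Without peaks under a score of 7, covered length was lower in KO in the bins from 130 to 131 Mb for H3K27me3 and from 14 to 15, 170 to 171 and 217 to 218 Mb for EZH2. The H3K27me3 excess shrank to 8912 bp from 217 to 218 Mb, 4926 bp from 218 to 219 Mb and 1089 bp from 240 to 241 Mb. The bin from 104 to 105 Mb, with POU3F3, had 27 EZH2 peaks covering 16265 bp in KO and 13 covering 3004 bp in WT, the largest EZH2 excess of the chromosome. The largest EZH2 deficits were in the bin from 172 to 173 Mb (31 peaks in KO, 65 in WT) and in the HOXD bin from 176 to 177 Mb (17 in KO, 41 in WT). The first of these holds DLX1, DLX2 and RAPGEF4, of which only RAPGEF4 is among the largest EZH2 gene deficits given below.

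POU3F3 was the plainest case of peaks in KO alone. From 104812233 to 104946875 the EZH2 lists held 23 peaks covering 15325 bp in KO and none in WT, and the H3K27me3 lists held 20 in KO and 10 in WT. Within it, from 104836834 to 104870351, H3K27me3 had 15 peaks in KO and none in WT. Both stretches, and that at GREB1 below, were picked for having peaks in KO and none in WT. The empty WT lists thus follow from the choice. The widest EZH2 peak of KO outside the pericentromeric part, 2375 bp, ended 1718 bp before the gene start used for windows, 104853276. The promoter printed above lies past that start, so the peak is farther from the promoter. The other KO-only stretches were smaller, such as 14 H3K27me3 peaks in KO and none in WT at GREB1, an oestrogen-responsive gene, where EZH2 had 3 in KO and 4 in WT.

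Genes were called marked where a peak covered any base within 5 kb of either gene end. H3K27me3 marked 305 of 1254 chromosome 2 genes in KO (24.3%, against 17.3% of genes over the genome) and 381 in WT (30.4%, against 19.6%). It marked 244 in both (19.5%, against 11.8%), 61 in KO only (4.86%, against 5.48%) and 137 in WT only (10.9%, against 7.84%). EZH2 marked 209 in KO (16.7%, against 9.93%) and 344 in WT (27.4%, against 15.1%). It marked 139 in both (11.1%, against 5.41%), 70 in KO only (5.58%, against 4.52%) and 205 in WT only (16.3%, against 9.65%). Of WT-marked genes, 244 of 381 (64.0%) were also marked in KO for H3K27me3 and 139 of 344 (40.4%) for EZH2. Over the genome these counts were 2351 of 3916 for H3K27me3 and 1081 of 3008 for EZH2. With peaks under a score of 7 left out, 22 genes had H3K27me3 and 20 had EZH2 in KO only. With a 2-kb window, 115 genes had EZH2 in WT only.

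The largest H3K27me3 deficits were at ERBB4, ZNF385B and G6PC2. ERBB4 had none of its gene-end windows covered in KO and 20.9% in WT, with 2 peaks in the whole gene in KO and 98 in WT. ZNF385B, a zinc finger gene, had 1.31% in KO and 21.98% in WT, and G6PC2, the glucose-6-phosphatase of pancreatic islets, 10.9% in KO and 31.2% in WT. SCG2, which encodes a secretory granule protein, had 3.83% in KO and 23.1% in WT. ACADL, a fatty acid dehydrogenase, had none in KO and 16.3% in WT, and ACVR1C, an activin receptor, none in KO and 13.3% in WT. LRP1B had 5.46% in KO and 19.1% in WT, DAPL1 15.8% in KO and 32.9% in WT, RBM44 6.06% in KO and 19.4% in WT, and TMEM247 3.16% in KO and 16.3% in WT. The order depends on the window. Within 2 kb of the gene ends the difference, KO minus WT, was -4.44 points at ERBB4, -3.61 at ZNF385B and 0 at TMEM247, but -34.7 at G6PC2 and -38.6 at DAPL1. SCG2, RBM44 and TMEM247 lie outside the middle long arm and the other 7 inside it, but the limits of that part and these genes were both chosen by H3K27me3 deficits.

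The largest H3K27me3 excesses were spread over both arms. RAB6C had 34.1% covered in KO and 10.4% in WT, but it is a retrocopy with near-identical relatives, so its value is uncertain. ACOXL, an acyl-CoA oxidase-like gene, had 22.5% in KO and 2.53% in WT. GPR55, a lipid receptor, had 26.6% in KO and 10.3% in WT, and BMP10, a heart growth factor, 27.9% in KO and 17.0% in WT. LOC124908045, a predicted gene within POU3F3, had 19.5% in KO and none in WT. EVX2, the homeobox gene at the end of the HOXD cluster, had 17.5% in KO and 9.40% in WT. SLC9A4, a sodium-proton exchanger, had 11.8% in KO and 2.97% in WT, and CYP27C1 13.5% in KO and 4.34% in WT. TACR1, the substance P receptor, had 11.3% in KO and 2.86% in WT, a difference that turned round with a 2-kb window, and RAD51AP2, a meiotic gene, 12.4% in KO and 4.60% in WT, which turned round without low-scoring peaks. Without them the difference was also smaller at BMP10 (1.57 points), GPR55 (9.95), RAB6C (12.9), SLC9A4 (5.60) and TACR1 (2.28). Within 2 kb it was smaller at ACOXL (9.31), CYP27C1 (5.84) and LOC124908045 (11.7) and larger at GPR55 (28.1).

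**Figure D5:**
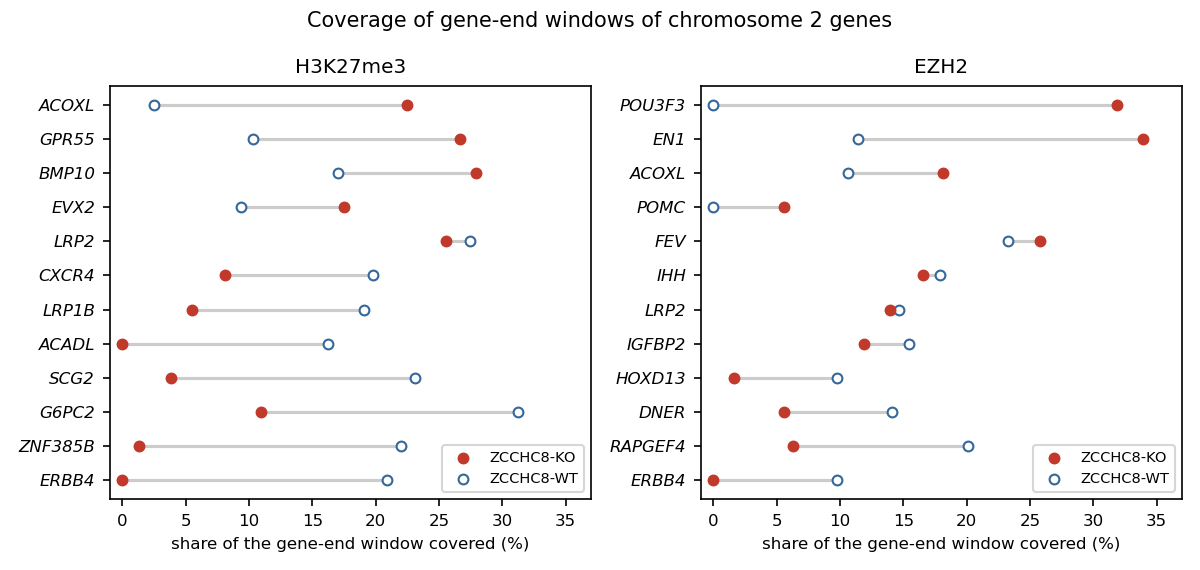
Percent of the bases within 5 kb of the gene ends covered by H3K27me3 or EZH2 peaks, for 12 genes per antibody in ZCCHC8-KO (filled) and ZCCHC8-WT (open), 1 library each. POU3F3 has 31.9% covered by EZH2 in KO and none in WT, and ERBB4 has no coverage in KO for either antibody, against 20.9% for H3K27me3 and 9.74% for EZH2 in WT.

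EZH2 differed most at POU3F3, the predicted gene LOC124908045 inside it, and EN1. LOC124908045, whose window overlaps that of POU3F3, had 32.2% of its window covered in KO and none in WT, POU3F3 31.9% in KO and none in WT, and EN1, the engrailed homeobox gene, 33.9% in KO and 11.4% in WT. POMC, the precursor of melanocortin hormones, had 5.56% in KO and none in WT, and ACOXL 18.1% in KO and 10.6% in WT. MYCN had 11.0% in KO and 6.24% in WT, EGR4 12.6% in KO and 6.63% in WT, LRATD1 10.3% in KO and 4.29% in WT, and GPR55 7.34% in KO and 1.10% in WT; all 4 turned round without low-scoring peaks. FOXD4L1, which has near-identical copies, had 9.11% in KO and 2.78% in WT, and LOC124905368 11.7% in KO and 4.41% in WT. On the lower side, RAPGEF4, a cAMP-regulated exchange factor, had 6.29% in KO and 20.1% in WT, and ERBB4 none in KO and 9.74% in WT. DNER, a Notch ligand, had 5.62% in KO and 14.1% in WT, HOXD13, a limb patterning factor, 1.66% in KO and 9.77% in WT, and EDAR, the ectodysplasin receptor, 3.50% in KO and 11.3% in WT. CRYBA2, a lens crystallin, had 15.2% in KO and 22.6% in WT, RAMP1, a receptor partner protein, 4.57% in KO and 11.5% in WT, and ZNF385B none in KO and 8.83% in WT. RAB6D, with near-identical copies, had 1.38% in KO and 13.7% in WT, and the predicted gene LOC124908046 8.81% in KO and 24.8% in WT. Several of these differences depend on the settings. Without peaks under a score of 7 the difference, KO minus WT, was 8.30 points at EN1, 0.25 at ACOXL, 2.82 at FOXD4L1, 0.0508 at LOC124905368, -4.67 at EDAR and -12.2 at CRYBA2. Within 2 kb of the gene ends it was 8.45 at EN1, 1.71 at ACOXL, 0 at FOXD4L1, 13.1 at LOC124908045, 12.8 at GPR55, -1.75 at ERBB4, -3.59 at ZNF385B, -3.12 at CRYBA2, -17.8 at EDAR, -24.3 at RAPGEF4, -11.0 at RAMP1 and -19.0 at RAB6D.

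Gene lists were set beside all chromosome 2 genes, of which H3K27me3 marked 24.3% in KO and 30.4% in WT and EZH2 16.7% in KO and 27.4% in WT, so a lower count in KO is also the background of each list below. Of 44 developmental transcription factors, H3K27me3 marked 17 in KO (38.6%) and 20 in WT (45.5%), 15 of them in both, and EZH2 marked 15 in KO (34.1%) and 19 in WT (43.2%), 11 of them in both. The share covered by H3K27me3 averaged 2.25% in KO and 2.04% in WT, and that by EZH2 3.28% in KO and 2.53% in WT. NEUROD1, a neuronal and islet factor, had 15.9% H3K27me3 coverage in KO and 9.36% in WT. FEV, a factor of serotonin neurons, had 25.8% EZH2 coverage in KO and 23.3% in WT, and EMX1, a forebrain factor, 6.24% in KO and 13.1% in WT. The median difference over the list was 0 for both antibodies. Many listed genes, and most of all 1254, had no difference, which holds such a median at 0. H3K27me3 coverage was higher in KO at 10 of the 44 and lower at 12, and EZH2 coverage was higher at 9 and lower at 14. In the HOXD cluster with EVX2, 3 of 10 genes had H3K27me3 in KO and the same 3 in WT, and EZH2 marked 2 in KO and 4 in WT. HOXD1 had 7.25% H3K27me3 coverage in KO and 16.9% in WT, and no EZH2 in KO against 5.51% in WT. Within 2 kb the H3K27me3 difference at HOXD1 was -0.433 points and the EZH2 difference -9.58. Without peaks under a score of 7 the H3K27me3 difference at NEUROD1 was 4.20 points and the EZH2 difference at FEV turned round.

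Of 34 neuronal genes, EZH2 marked 6 in KO (17.6%, near the 16.7% of all genes) and 18 in WT (52.9%, against 27.4%), 5 in both. H3K27me3 marked 15 in KO (44.1%) and 16 in WT (47.1%), 9 in both. CACNB4, a calcium channel subunit, had 8.03% EZH2 coverage in KO and 14.8% in WT, and 2.92% H3K27me3 coverage in KO and 12.9% in WT. Potassium channel genes differed among themselves, with KCNG3 at 5.51% H3K27me3 in KO and none in WT, and KCNH7 at 5.46% in KO and 9.41% in WT. Of 24 signalling genes, H3K27me3 marked 7 in KO and 7 in WT, 4 in both, and EZH2 marked 7 in KO and 10 in WT, 7 in both. IHH, the Indian hedgehog ligand, had 16.6% EZH2 coverage in KO and 17.9% in WT, and WNT6 5.49% in KO and 6.25% in WT. Within 2 kb the EZH2 difference was -14.9 points at CACNB4, 11.7 at IHH and -4.61 at WNT6, so IHH turned round. EFEMP1, a fibulin of the extracellular matrix, had 4.54% H3K27me3 in KO and 10.7% in WT.

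Of 25 kidney genes, H3K27me3 marked 11 in KO (44%, against 24.3% of all genes) and 15 in WT (60%, against 30.4%), 10 in both. EZH2 marked 7 in KO (28%, against 16.7%) and 12 in WT (48%, against 27.4%), 5 in both. LRP2, the megalin receptor of proximal tubules, had 25.5% H3K27me3 coverage in KO and 27.4% in WT, and 14.0% EZH2 coverage in KO and 14.7% in WT, although it lies in the middle long arm. SLC9A2, a sodium-proton exchanger, had 7.18% H3K27me3 in KO and 13.2% in WT, next to SLC9A4, which was higher in KO. ATP6V1B1, a proton pump subunit of intercalated cells, had 9.36% H3K27me3 in KO and 2.85% in WT. IGFBP2 had 11.9% EZH2 in KO and 15.4% in WT. Within 2 kb the H3K27me3 difference was -2.04 points at SLC9A2 and 1.30 at ATP6V1B1, the EZH2 difference was -7.52 at IGFBP2, and that at LRP2 turned round; without peaks under a score of 7 the H3K27me3 difference at LRP2 was -4.96. Of 29 immune genes, H3K27me3 marked 16 in KO (55.2%, against 24.3%) and 23 in WT (79.3%, against 30.4%), all 16 in both. Its covered share was higher in KO at 4 and lower at 19, while of all 1254 genes 13.1% were higher and 22.2% lower. The median difference was -0.940 points, and it was -1.45 in the REG and crystallin genes described below. The median of 0 over all chromosome 2 genes is no like measure. Most of those genes had no difference, and the immune genes were marked more often. Several interleukin genes of the list are neighbours, so these counts are not independent. EZH2 marked 11 in KO (37.9%, against 16.7%) and 18 in WT (62.1%, against 27.4%), 8 in both. CXCR4, a chemokine receptor, had 8.14% H3K27me3 in KO and 19.8% in WT, and the interleukin gene IL36A had 12.3% in KO and 13.3% in WT, a difference that was -11.9 points within 2 kb.

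In the remaining lists, as over all genes (H3K27me3 24.3% in KO and 30.4% in WT, EZH2 16.7% in KO and 27.4% in WT), no more genes were marked in KO than in WT. Of 16 extracellular matrix genes, H3K27me3 marked 5 in KO and 7 in WT and EZH2 3 in KO and 7 in WT; the fibronectin gene FN1 had 0.870% H3K27me3 in KO and 5.45% in WT. Of 16 muscle genes, H3K27me3 marked 5 in KO and 6 in WT and EZH2 2 in KO and 5 in WT, with none in both for EZH2. Of 9 REG and crystallin genes, H3K27me3 marked 2 in KO and 6 in WT and EZH2 1 in KO and 4 in WT. Of 9 RNA decay and chromatin factor genes, H3K27me3 marked 2 in KO and 3 in WT and EZH2 2 in KO and 3 in WT; C1D, an exosome cofactor, had 0.930% H3K27me3 in KO and 4.69% in WT, a difference of 0 within 2 kb. Of 40 housekeeping genes, 1, NDUFA10, had H3K27me3 in KO and in WT, and none had EZH2.

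Most peaks outside the pericentromeric part lay away from genes. H3K27me3 peaks lay within 5 kb of a gene end in 7.91% of cases in KO and 7.08% in WT, farther inside a gene in 28.2% in KO and 29.1% in WT, and farther outside genes in 63.9% in KO and 63.8% in WT. EZH2 peaks lay within 5 kb of a gene end in 14.3% of cases in KO and 13.2% in WT, farther inside a gene in 27.7% in KO and 30.5% in WT, and farther outside genes in 58.1% in KO and 56.2% in WT. Across bins, EZH2 peak number had a rho with gene number of 0.233 in KO and 0.490 in WT, and H3K27me3 one of 0.228 in KO and 0.137 in WT. The widest H3K27me3 peak, of 5185 bp in KO, lay 76212 bp from SIX3, a forebrain factor, with 3431 bp of it covered in WT, and one of 4807 bp in KO and 3886 bp in WT lay in ABCG8, a sterol transporter. The widest EZH2 peak in WT, 1947 bp, lay in CYP27C1, where KO had one of 1614 bp.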

How the data were processed

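Peaks of 4 ChIP libraries (H3K27me3 and EZH2, ZCCHC8-KO and ZCCHC8-WT) were analysed, 1 library per group, grouped by the genotype and title labels; 2 input libraries entered only as controls of the lists. Per the submitters' processing notes, cutadapt 1.9.3 and Bowtie2 2.2.4 were used with hg38. The sources used here name no peak caller and give no read depth, so no floor could be set. The deposited lists had 6 columns and no header; column 5, deposited by the authors, held the length in bp (end minus start plus 1, so positions were read as 1-based), and the last held a score that the authors gave each peak.

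Identical lines were counted once. Peaks entered 1-Mb bins by midpoint for numbers and by bases for covered length. Genes came from a RefSeq table (GRCh38.p14) without strand or exons, so windows of 5 kb on both sides of both gene ends, merged where they met, were used, and no exon, intron or UTR is named. Shares have exact 95% Clopper-Pearson intervals, and ratios the interval of the binomial share. Python 3.11.15, NumPy 2.4.6, pandas 2.3.3, SciPy 1.17.1 and matplotlib 3.10.9 were used. The routines were also run on WT lists with peaks removed, which checks the code and not the results.

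The members, the gene lists, the rule for named genes and the settings were chosen with earlier results of these data known. The rule took, per antibody, the 10 genes with the largest excess and deficit of covered share in KO, members of each list marked in both genotypes or differing most (a selection is printed), the 5 bins with the largest excess and deficit, the 5 widest and highest-scoring peaks, and stretches with peaks in 1 genotype. GREB1 and the zones were named after their values were seen. Alternatives changed the score minimum, the limits of the pericentromeric part, the overlap, the gene window, the counting of lines and the measure for bins; those for the pericentromeric ratio were added after the data were seen.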

Additional observations from a re-analysis of the deposited data

How the results depend on the processing

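No paired analysis was possible because there was 1 library per group. The direction of all 4 ratios outside the pericentromeric part was the same under every alternative run, and the cause of each move below was not tested. Leaving out peaks under a score of 7 gave a KO/WT ratio outside of 0.325 for H3K27me3 and 0.179 for EZH2 by number, and of 0.395 and 0.248 by length. It turned the pericentromeric ratio below 1, to 0.871 and 0.835. The pericentromeric share of H3K27me3 peaks became 23.1% in KO and 10.1% in WT, and that of EZH2 peaks 29.99% in KO and 8.39% in WT. Overlap with the other genotype outside became 33.6% in KO and 11.4% in WT for H3K27me3 and 16.4% in KO and 3.15% in WT for EZH2, and 17.3% of EZH2 peaks in KO met H3K27me3. Bins lower in KO became 147 for H3K27me3 and 117 for EZH2, bins higher 0 and 1, and genes marked in KO only 22 and 20. Counting every deposited line gave ratios outside of 0.656 for H3K27me3 and 0.577 for EZH2, and pericentromeric shares of 15.2% in KO and 9.52% in WT for H3K27me3 and 14.5% in KO for EZH2. With 92 to 95 Mb as the pericentromeric part, the shares were 9.54% in KO and 6.93% in WT for H3K27me3 and 9.93% in KO and 5.62% in WT for EZH2. With 87 to 98 Mb they were 14.8% in KO and 11.1% in WT, and 14.7% in KO and 9.08% in WT. An overlap of at least 50% gave 13.3% in KO and 9.52% in WT for H3K27me3, 4.19% in KO and 2.69% in WT for EZH2, and 12.6% in KO and 9.36% in WT for EZH2 over H3K27me3. By peak number 1 H3K27me3 bin was higher in KO. A 2-kb window left 115 genes with EZH2 in WT only.

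Some named genes and bins turned round. Without scores under 7, EZH2 coverage, KO minus WT, was -2.90 points at EGR4, -2.08 at FEV, -1.10 at GPR55, -1.21 at LRATD1 and -2.84 at MYCN, and H3K27me3 coverage -2.16 at RAD51AP2. In the same setting EZH2 length, KO minus WT, was -1464 bp in the bin from 14 to 15 Mb, -4004 bp from 110 to 111 Mb, -3175 bp from 170 to 171 Mb and -2049 bp from 217 to 218 Mb, and H3K27me3 length -5917 bp from 110 to 111 Mb and -5481 bp from 130 to 131 Mb. With a 2-kb window the difference was 11.7 points at IHH, 1.39 at LRP2 and -3.31 at MYCN for EZH2, and -3.62 at TACR1 for H3K27me3. No depth was given, so a peak missing from a list is not evidence that the mark is absent there.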
